A study of Homo sapiens with 8 samples.

Results

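The 718 regions described here are m6A peaks of control cells that lie in coding sequence. They make up 718 of the 2299 peaks in the control peak list (31.2%, 95% Wilson interval 29.4 to 33.2). A peak was taken when its summit fell in the coding sequence of a protein-coding transcript of the basic set of GENCODE 44, carried over to GRCh37, and in no 3′UTR of another transcript. No limit on fold or q value was set. The cells were MIAPaCa-2, an established human pancreatic carcinoma line, and carried either a control shRNA or an shRNA against METTL3 (METTL3-KD), the knockdown being a hairpin line. From each, RNA broken to short fragments was sequenced before and after pulldown with an m6A antibody, so that each line gave an m6A group and an input group, 4 groups in all with 2 lanes each. The titles name lanes and no separate cultures, so each group was read as 1 library, no p-value was computed, and intervals on shares cover counting error only.

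N6-methyladenosine (m6A) is a methyl mark on adenosine inside messenger RNA. METTL3 is the catalytic subunit of the complex that writes it, mostly at an adenosine in a short sequence called DRACH, in which D is any base but C, R is a purine and H is any base but G. The mark is known to gather in long internal exons and around stop codons, is read by proteins such as the YTHDF family and bears on RNA stability, splicing and translation. Coding exons are the part of the message that ribosomes cross, and the mark there has been tied to codon pausing and to decay.

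The libraries held few distinct fragments. The control m6A library had 2242358 reads at 7920 distinct positions, or 283 reads per position, and its input had 2880835 reads at 9291 positions. After knockdown the m6A reads, 1252805 in number, lay at 4508 positions, while the input held 1337448 reads at 52141 positions, or 25.7 reads per position. These are the totals of the peak caller. The gene count table is a separate count and holds more, 3237968 reads in control input and 1833005 in METTL3-KD input over both lanes, and the sources used here do not explain the difference. METTL3 itself had 0 reads in all 4 input lanes, so the knockdown could not be checked in these counts. Of the markers of the line, KRT8 (10850 control and 1167 METTL3-KD reads), KRT18 (3535 and 1212) and VIM (8978 and 5649) were present, whereas EPCAM, CDH1, CDH2 and FN1 had 0 reads in both inputs. KRT19 had 1 control and 201 METTL3-KD reads, and ZEB1 0 and 50. Markers of acinar cells, islet cells, leukocytes (PTPRC) and fibroblasts (COL1A1) were at 0 in both, and CD68 had 0 control and 43 METTL3-KD reads. The part of library complexity in the results below was not tested.

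The sequences below are reference sequence (GRCh37) around the DRACH motif closest to the summit, written 5′ to 3′ on the strand of the transcript, with the 5 letters of the motif in capitals. The first 6 are the peaks with the highest pileup, which is the number of distinct extended fragments over the summit, and all had a pileup of 5. They lie at chr11:43876281-43876307 (+), chr12:50571130-50571156 (-), chr13:33247404-33247430 (+), chr19:54705360-54705386 (+), chr7:98995515-98995541 (-) and chr7:149190010-149190036 (-).
HSD17B12: tcgtagctacaAAACTggctaaaatcc
LIMA1: atctaaaggagAGACAgggaagagaag
PDS5B: gagcatgtcttTGACTtaattttggag
RPS9: tatgggctccgGAACAaacgtgaggtc
PDAP1: ccatcatccggAAACAgcgggaggagg
ZNF746: tctcccagattGAACAagggaaggagc

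The next, in S100A4 at chr1:153516380-153517136 (-), had a pileup of 4 and a motif that starts with GGAC, the core best known for m6A. This sequence is spliced, so its coordinates span an intron.
S100A4: cttggggaaaaGGACAgatgaagctgc

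APP, the amyloid precursor protein, held 4 coding peaks, shown in the order of its exons 2, 5, 7 and 9 at chr21:27484333-27484359, chr21:27423496-27425564, chr21:27372471-27372497 and chr21:27354727-27354753 (-). The sequence of exon 5 is again spliced.
APP exon 2: agatccatcagGGACCaaaacctgcat
APP exon 5: cgtcgccaaagAGACAtgcagtgagaa
APP exon 7: aggtgtgctctGAACAagccgagacgg
APP exon 9: caagtatctcgAGACAcctggggatga

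The last pair are the coding peaks that touched a METTL3-KD peak, in CUBN at chr10:16994303-16994329 (-) and in TTLL12 at chr22:43575737-43575851 (-), the latter spliced.
CUBN: gccaattatccAAACAatcagaactgc
TTLL12: tggcgaggaggTGACCcgagactttgc

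Most coding peaks rested on few fragments. A pileup of 1 was found in 331 peaks (46.1%, 42.5 to 49.8), a pileup of 2 in 249 (34.7%), of 3 in 109 (15.2%) and of 4 or more in 29 (4.04%, 2.83 to 5.74), with 5 as the highest. Fold enrichment over input followed the pileup: it was 2.0 at a pileup of 1, at most 3.0 at 2 and 4.0 at 3, and reached 6.0. In 23 peaks (3.20%, 2.14 to 4.76) the fold was lower than pileup plus 1 by more than 0.01, against 18 of 437 peaks in 3′UTRs (4.12%) and 9 of 681 in introns (1.32%). In the other peaks the fold was pileup plus 1 to within 0.01, and so added nothing to the pileup. Of the 22 host genes whose highest peak had such a lower fold, 21 had control input reads. Fold is a ratio over input, so that this count was largely set by the choice of peaks. The peak in YWHAE, which encodes a 14-3-3 protein, had such a lower fold, with a pileup of 3, a fold of 3.97 and 4153 control input reads. The −log10 q ran from 2.89 to 17.4 with a median of 6.42, so that all 718 peaks were under a q of 0.01.

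The fragments of a peak started close together. Of the 387 coding peaks with a pileup of 2 or more, 349 (90.2%) were at most 105 nt long, which for fragments extended to 100 nt means starts within 5 nt of each other. The share was 94.4% at a pileup of 2, 88.1% at 3 and 62.1% (18 of 29) at 4 or more. The longest coding peak spanned 270 nt and the median 101 nt. LIMA1, an actin-binding protein, had the broadest of the 6 peaks of highest pileup at 199 nt, and PDS5B, a regulator of cohesin, the narrowest at 106 nt.

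In strength the coding peaks stood close to those of the UTRs. A pileup of 1 was found in 45.5% (40.9 to 50.2) of the 437 peaks in 3′UTRs and in 46.0% of the 100 in 5′UTRs. It was more frequent among the 681 peaks in introns (57.3%, 53.5 to 60.9), the 234 in noncoding exons (57.7%, 51.3 to 63.8) and the 128 outside genes (74.2%, 66.0 to 81.0). Of the intron peaks, 221 touched coding sequence without having their summit there. Among the METTL3-KD peaks, 292 of 1087 (26.9%) lay in coding sequence by the same rule, and 68.2% of these had a pileup of 1 and 14.0% one of 4 or more.

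**Figure D1:**
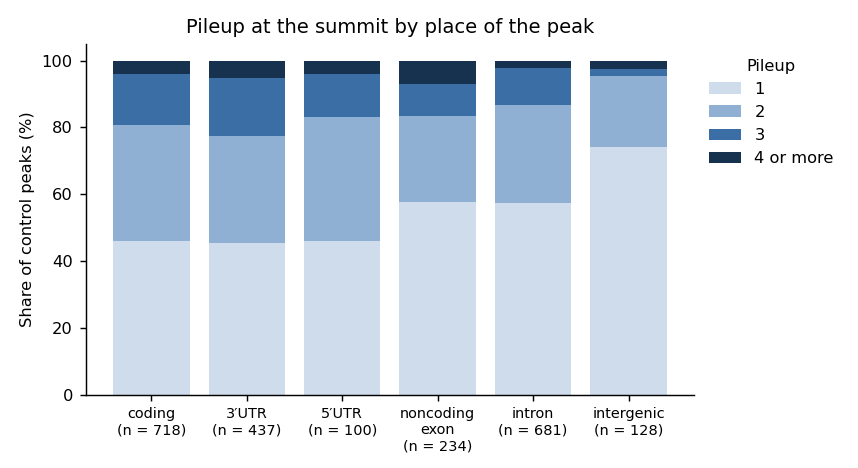
Share of control peaks (%) with a pileup of 1, 2, 3 or 4 and more at the summit, by the place of the summit, with the number of peaks under each bar. Pileup 1 makes up 46.1% of coding peaks and 45.5% of 3′UTR peaks, and 74.2% of intergenic peaks.

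Coding peaks spread over the whole coding sequence, with more of them at its start. The median summit lay 46.0% of the way from the start to the stop codon, and the middle 50% of summits between 20.2% and 72.6%. When the coding sequence was cut into 10 equal segments, the first held 99 peaks (13.8%, 11.5 to 16.5), the sixth 53 (7.38%) and the last 64 (8.91%). Within 200 nt of the start codon lay 127 summits (17.7%, 15.1 to 20.6), where 13.8% of the coding bases of the same transcripts and 11.6% of all coding bases lie. The share of the same transcripts thus fell below the interval of the peaks. Within 200 nt of the stop codon lay 93 summits (13.0%, 10.7 to 15.6), and the 13.8% of the same transcripts fell inside that interval. The membership rule leaves out summits in a 3′UTR of another transcript. With the bases of the same transcripts trimmed likewise, a reference added after the data were seen, they were 14.4% at the start and 12.8% at the stop codon. When such peaks were kept, 112 of 744 (15.1%, 12.7 to 17.8) lay near the stop codon against 14.1% of bases, and 128 (17.2%, 14.7 to 20.1) near the start codon, where the same 14.1% fell below the interval. At 100 nt the values were 8.91% (7.04 to 11.2) for the start and 7.52% (5.81 to 9.68) for the stop against 6.98% of the bases of the same transcripts. At 400 nt they were 29.5% (26.3 to 33.0) and 24.5% (21.5 to 27.8) against 26.8%. At the start codon the share of bases thus lay below the interval of the peaks at 200 nt, just below it at 100 nt and inside it at 400 nt.

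**Figure D2:**
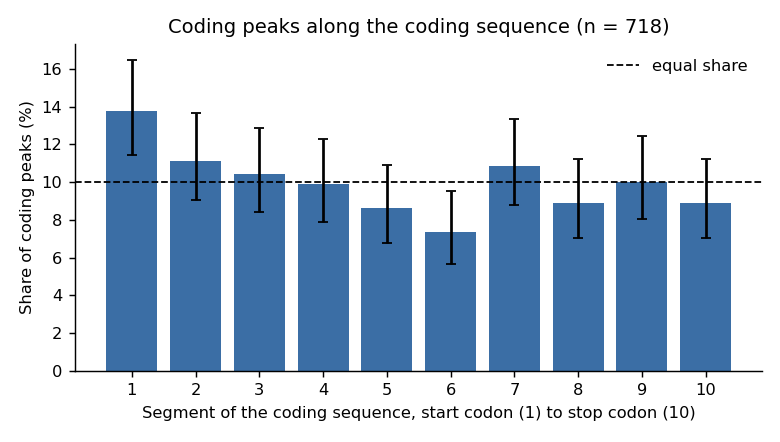
Share of the 718 coding peaks (%) in each of 10 equal segments of the coding sequence, from the start codon (1) to the stop codon (10). Bars are shares, error bars 95% Wilson intervals and the dashed line an equal share. The first segment holds 13.8% and the sixth 7.38%.

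In peaks of higher pileup the place was much the same. The share near the stop codon was 12.4% at a pileup of 1, 12.9% at 2, 14.7% at 3 and 13.8% at 4 or more. Near the start codon it was 16.0%, 20.1%, 14.7% and 27.6% (14.7 to 45.7, 8 of 29). HSD17B12, a reductase of long-chain fatty acid synthesis, carried its peak at 77.6% of the coding sequence and PDAP1 at 78.8%. RPS9, a protein of the small ribosomal subunit, carried its strongest peak at 24.2% and ZNF746, a zinc finger repressor, at 25.4%. AGRN, the proteoglycan agrin, had a peak of pileup 4 at 21.0% and DHX9, an RNA helicase, at 13.1%. The strongest peaks thus lay on both sides of the middle.

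The exon under the summit, measured whole with any UTR it holds, had a median length of 194 nt and ranged from 39 to 17547 nt. Exons of 100 to under 200 nt held 302 peaks (42.1%), where 43.4% of the coding bases of the same transcripts lie. Exons of 400 nt or more held 216 peaks (30.1%, 26.8 to 33.5), with 27.3% of the bases of the same transcripts inside this interval and the 36.1% of all coding bases above it. With those bases trimmed by the membership rule the value was 26.5%, just below the interval. Exons under 100 nt held 71 peaks (9.89%, 7.91 to 12.3) against 12.9%, which lay above the interval. Peaks that reach into an exon but have their summit in an intron are not members, and their part in this was not tested. Among the longest exons with a peak were those of AHNAK2 (17547 nt), CCDC127 (9091 nt), ZNF148 (8271 nt) and OR5A1 (8245 nt). The whole coding sequence was 17388 nt in AHNAK2 but 783 nt in CCDC127, 2385 nt in ZNF148 and 948 nt in OR5A1. Most of the last 3 exons is thus UTR. AHNAK2 encodes a giant scaffold protein and OR5A1 an olfactory receptor. The first of these had a pileup of 2 and each of the other 3 one of 1.

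**Figure D3:**
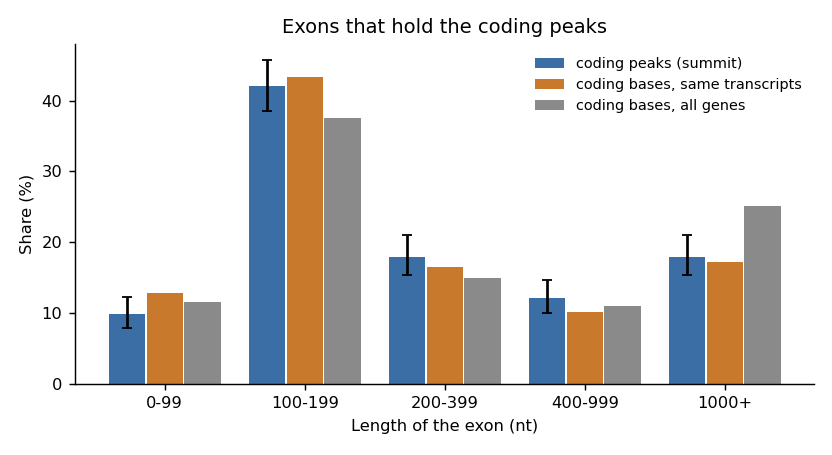
Share (%) of coding peaks by the length of the exon under the summit in nt, with 95% Wilson intervals, beside the shares of coding bases in such exons in the same transcripts and in all genes. Exons of 1000 nt or more hold 18.0% of peaks, 17.2% of the bases of the same transcripts and 25.2% of all coding bases.

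The last exon held 130 peaks (18.1%, 15.5 to 21.1), beside 16.8% of the bases of the same transcripts (15.6% when trimmed) and 20.9% of all coding bases. First exons held 70 (9.75%), internal exons 537 (74.8%), and 19 (2.65%) lay in transcripts of a single exon. Summits of member peaks were sparse at exon edges. Only 144 summits (20.1%, 17.3 to 23.1) were within 25 nt of an edge, where 28.8% of the coding bases of the same transcripts lie. Membership goes by the summit, and 221 intron peaks touched coding sequence with their summit outside it. Their part in this deficit was not tested. The peak caller extended reads along the genome and not across introns, and 422 peaks (58.8%) lay wholly inside the exon of their summit. Among these, 44.1% (39.4 to 48.8) were in exons of 400 nt or more, against 34.5% of the bases of their transcripts, and 23.7% (19.9 to 28.0) were in the last exon, against 20.6%. A short exon holds a whole 100 nt window at few positions, and that reference does not allow for it. In this subset 19.0% (15.5 to 23.0) lay within 200 nt of the start codon against 13.3%.

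A DRACH motif lay within 50 nt of the summit in 624 of 717 peaks (87.0%, 84.4 to 89.3). At coding positions of the same transcripts taken at large it was 85.7%, and at all coding positions 86.5%, both inside the interval. The motif was read on the strand of the transcript, in the spliced sequence, and 1 peak in unknown bases was left out. The core GGAC was found in 302 (42.1%, 38.6 to 45.8), beside 38.9% at positions of the same transcripts and 38.4% at all. By pileup the DRACH share was 89.7% at 1, 84.3% at 2, 84.4% at 3 and 89.7% at 4 or more, so that it did not rise with the pileup. The motif nearest to the summit was GGACC in 59 peaks, the most frequent, then GGACA in 55, while GGACT, as in AHNAK2, was the nearest in 36. In the 10 peaks of highest pileup the adenosine lay between -26 and 25 nt of the summit. Windows had a GC content of 54.1% ± 11.6 (SD over 717 windows) beside 52.8% for the coding sequences of their transcripts.

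The coding peaks fell in 659 genes, 3.32% of the 19824 protein-coding genes. A single coding peak was found in 605 of them, 51 had 2, and 3 had more. In 12 peaks the summit was coding in more than 1 gene, and 64 (8.91%) had a gene on the other strand. Peaks were called without strand, so that in these cases the source was not resolved. A peak in a 3′UTR was also present in 45 host genes (6.83%).

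APP and DST had 4 coding peaks each and EIF3M had 3. The peaks of APP lay at 7.46%, 20.3%, 39.0% and 49.7% of its coding sequence, with a pileup of 1, 2, 3 and 2. Its gene had 262 and 279 reads in the control input lanes and 634 and 636 in the METTL3-KD input lanes. All 4 were thus in the 5′ part of the coding sequence of a gene with reads in both inputs. In DST, which encodes the cytoskeletal linker dystonin and has a coding length of 23457 nt, the peaks lay at 6.29%, 88.3%, 93.2% and 95.2%. DST had 1454 and 1441 control reads and 298 and 277 METTL3-KD reads. EIF3M, a subunit of initiation factor eIF3, had peaks at 32.4%, 79.4% and 84.8% with a pileup of 1, 2 and 2, 0 reads in both control lanes, and 313 and 358 in the METTL3-KD lanes.

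Longer and more highly counted genes held coding peaks more often. In METTL3-KD input, the library with most distinct positions, genes were grouped by their reads. A coding peak was present in 0.679% (0.545 to 0.846) of genes with 0 reads, in 4.17% with 1 to 9, 5.04% with 10 to 29, 5.86% with 30 to 99, 10.8% with 100 to 299 and 18.4% (15.2 to 22.1) with 300 or more. Per Mb of coding sequence this was 4.36 peaks in the lowest and 116 in the highest group. By coding length, among genes with at least 10 such reads, the share was 3.92% (2.67 to 5.72) under 500 nt, 5.65% from 500 to under 1000 nt, 6.64% from 1000 to under 2000 nt, 8.66% from 2000 to under 4000 nt and 17.5% (14.7 to 20.7) from 4000 nt. Peaks per Mb of coding sequence went the other way, from 106 in the shortest to 32.1 in the longest group. The transcript with a peak had a median coding length of 1968 nt, against 1275 nt over all genes.

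**Figure D4:**
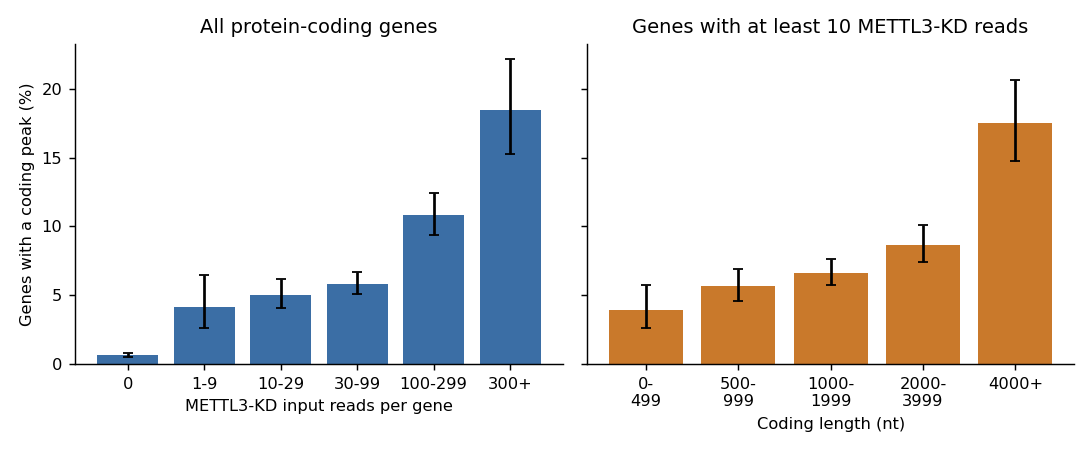
Share of protein-coding genes with a coding peak (%), left by METTL3-KD input reads per gene and right by coding length in nt among genes with at least 10 such reads. Error bars are 95% Wilson intervals. The share goes from 0.679% to 18.4% on the left and from 3.92% to 17.5% on the right.

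Host genes were set beside 27 gene classes, whose members were taken by symbol. Of the 659 hosts, 153 belonged to a class. RNA helicases had a coding peak in 10 of 54 genes (18.5%, 10.4 to 30.8), and among helicases with at least 10 METTL3-KD reads in 24.4%, where the share of all such genes was 7.61%. They included DHX9 (pileup 4) and DDX46, DDX54 and DHX29 (pileup 2 each). DHX9 had 637 and 621 control reads and 190 and 187 METTL3-KD reads, whereas DDX46 and DDX54 had 0 control reads. Aminoacyl-tRNA synthetases, which load tRNAs with amino acids, had 6 of 37 (16.2%, 7.65 to 31.1), with 2 peaks each in EPRS1 and SARS1. Proteasome subunits had 6 of 48 (12.5%, 5.86 to 24.7), among them the core subunits PSMB6 and PSMB7 and the regulatory PSMD2 and PSMD3, all with a pileup of 2. Nuclear pore and import genes had 7 of 56 (12.5%), with a pileup of 3 in AHCTF1 and NUP153.

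Splicing factors had 12 of 125 (9.60%, 5.58 to 16.0), led by RBM42 with a pileup of 4 and SNRNP40 with 3. Mitotic regulators had 8 of 75 (10.7%), among them the kinetochore proteins CENPE and CENPN, and kinesins and dyneins 7 of 73 (9.59%). Glycolysis and pentose phosphate enzymes had 3 of 33, namely PKM, GPI and ENO1, and translation factors had 6 of 71 (8.45%). The latter list was set by symbol and took in EIF2AK3, a kinase of the stress response, and EIF4ENIF1, a transporter of eIF4E. Chromatin regulators had 8 of 104 (7.69%), with a pileup of 3 in KDM4C, KDM5A, KMT2D and SMARCA1. Chaperones had 6 of 87, of which CCT5, CCT6A and CCT7 belong to the same folding chamber. Among genes with at least 10 METTL3-KD reads, beside the 7.61% of all such genes, the share was 15.6% for synthetases, 14.3% for the proteasome, 14.9% for nuclear pore and import, 12% for splicing factors, 13.6% for mitotic regulators and 16.7% for kinesins and dyneins. It was 13.0% for glycolysis, 10.4% for chromatin regulators, 8.77% for translation factors and 6.90% for chaperones, so that the last pair lay near the share of all counted genes. These shares were not matched for coding length. Per Mb of coding sequence, beside 43.1 over all such genes, chromatin regulators had 29.9 peaks and chaperones 42.7. Nuclear pore and import had 52.4, mitotic regulators 53.9, and kinesins and dyneins 60.5. Splicing factors had 76.8, translation factors 77.0, synthetases 98.6, helicases 100, glycolysis 125 and the proteasome 126. These rates rest on few peaks, from 4 in glycolysis to 13 in splicing factors over all genes of the class. Over all genes the exact Poisson interval was 23.1 to 217 for glycolysis, 42.3 to 251 for the proteasome and 19.8 to 90.4 for mitotic regulators. These intervals overlapped, so that the order of the classes is not resolved.

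Lower shares, but above the 3.32% of all genes, were found in the respiratory chain (7 of 102) and the actin cytoskeleton (7 of 105). The same held for mitochondrial ribosomal proteins (5 of 78), cytosolic ribosomal proteins (5 of 88), histones (5 of 88) and E3 ubiquitin ligases (11 of 187). It held too for integrins, laminins and collagens (5 of 89), and for DNA replication and repair (6 of 110). Of these, only the respiratory chain had an interval (3.36 to 13.5%) without 3.32%. Among genes with at least 10 METTL3-KD reads, beside 7.61% of all, integrins, laminins and collagens had 12%. E3 ligases had 11.6%, actin 10.7%, histones 9.52% and the respiratory chain 9.09%. Mitochondrial ribosomal proteins had 8.47%, replication and repair 8.11%, and cytosolic ribosomal proteins 6.02%. VCL, or vinculin, and PLEC, or plectin, had the highest pileup of the actin class at 4 each. Histone genes are near-identical copies, so that the reads of H2BC18, H2BC6 and H4C14 could be split among copies. Per Mb of coding sequence, ribosomal proteins had 131 peaks (48.1 to 285, exact Poisson interval) and the respiratory chain 127 (51.1 to 262), beside 21.1 over all genes. Among genes with at least 10 METTL3-KD reads the values were 142 and 155 beside 43.1. Both classes have short coding sequences, with a median of 457.5 and 387 nt, and counted genes of under 500 nt had 106 peaks per Mb. Their read depth differed, with a median of 648 METTL3-KD reads in cytosolic ribosomal genes and 57.5 in the respiratory chain. Genes with 300 or more such reads had 116 peaks per Mb and a coding peak in 18.4%. Those with 30 to 99 had 32.3 and 5.86%. The class values were not matched for reads.

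C2H2 zinc finger proteins had a low share at 10 of 598 (1.67%, 0.911 to 3.05), of which 33.8% had at least 10 METTL3-KD reads. Solute carriers had 7 of 379 (1.85%, 0.897 to 3.76), an interval that holds the share of all genes, and 5 of the 112 with at least 10 such reads (4.46%). Among zinc finger genes with at least 10 such reads the share was 1.98%. Receptor and MAP kinase signalling had 2 of 90 (INSR and MAP3K4, 0.612 to 7.74%), cadherins 1 of 108 (PCDHAC2, 0.164 to 5.06%) and olfactory receptors 1 of 390 (0.256%, up to 1.44). Tubulins (0 of 30, which allows up to 11.4%) and keratins (0 of 55, up to 6.53%) had none. Few genes of some of these classes had at least 10 METTL3-KD reads. Such genes were 5 of the 55 keratins, 28 of the 108 cadherins and 0 of the 390 olfactory receptors. They were 16 of the 30 tubulins and 42 of the 90 signalling genes. Of the 19 m6A writers, erasers and readers, IGF2BP3 and YTHDF3, both readers, held a coding peak, each with a pileup of 1. IGF2BP3 had 0 control and 342 METTL3-KD reads and YTHDF3 had 0 in both.

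**Figure D5:**
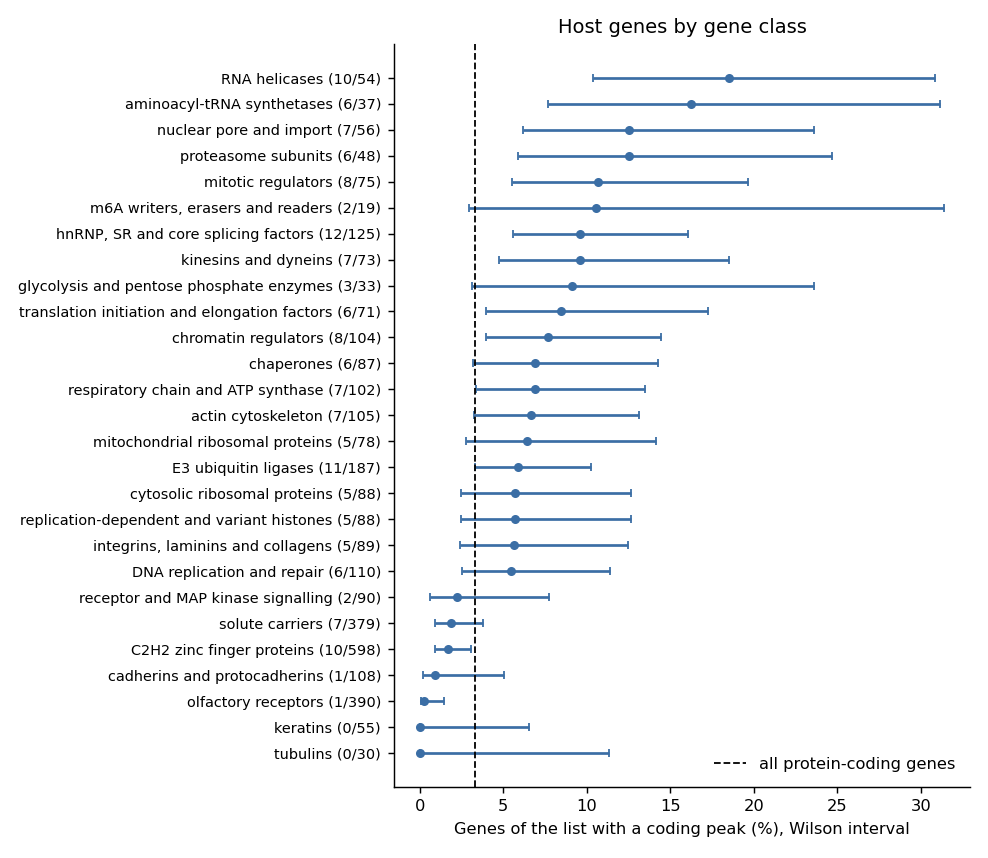
Genes of each class with a coding peak (%), with 95% Wilson intervals and, in brackets, genes with a peak over genes of the class. The dashed line is the share of all protein-coding genes (3.32%). RNA helicases lie highest (18.5%), and tubulins and keratins at 0.

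Most host genes had no reads in the input of the cells in which the peaks were called. Of the 645 host genes in the count table, 498 (77.2%, 73.8 to 80.3) had 0 control input reads, beside 89.7% of all protein-coding genes in the table. At least 1 METTL3-KD input read was found in 566 (87.8%, 85.0 to 90.1), beside 39.6%. Hosts with METTL3-KD reads and 0 control reads numbered 422 (65.4%), those with the reverse 3 (EML1, LRRC8A and ETV2, the last with 1 read and named after its values were seen), and those with 0 in both 76 (11.8%). The last included FN1, MYO7A, COL3A1, PCDHAC2, MAP3K4 and KIF18A. Were reads independent, a count of 0 would allow up to 3, or 0.927 CPM in control and 1.64 CPM in METTL3-KD input. Reads came at 310 per position in control input and 25.7 in METTL3-KD input, so the true limits are higher. Hosts of 3′UTR peaks had 0 control reads in 84.4% (80.7 to 87.5 of 435), and hosts of intron peaks in 77.9% (74.3 to 81.1 of 570), so that the shares of coding and intron hosts overlapped in their intervals.

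Hosts with control reads had them in large blocks. The 147 such hosts had a median of 968 reads, beside 940 over all 1984 protein-coding genes with control reads. The middle 50% lay between 512.5 and 1088 for hosts and between 470 and 1088 for all such genes. The hosts were thus near the background. Their counts gathered near 512 and 1040, with 40 hosts within 25% of the first value and 61 within 25% of the other. PKM, a glycolytic enzyme, had most, with 3454 and 3481 reads by control lane against 1829 and 1860 after knockdown. YWHAE followed with 2089 and 2064 against 283 and 311, then AHNAK2 with 1457 and 1601 against 335 and 307, and the kinase WNK1 with 1522 and 1502 against 127 and 150. In METTL3-KD input the 566 hosts with reads had a median of 90 (39 to 199 for the middle 50%), beside 52 over all protein-coding genes with reads. The first lane held a median of 49.8% of a host's control reads and 49.3% of its METTL3-KD reads, so that the lanes were alike.

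The inputs of both conditions were then compared for the host genes. Ratios of METTL3-KD over control were taken as log2 CPM, scaled by TMM with a prior count of 2, for genes with at least 10 reads, and a log2 ratio beyond 2 was counted. Of 551 hosts, 431 (78.2%, 74.6 to 81.5) were higher in METTL3-KD input, beside 79.2% of all 9931 genes counted, so that their share was near the background. Of the 431, 405 (94.0%) had 0 control reads, for which the fitted ratio depends on the prior count. With totals under 3 reads set to 3, 431 hosts again passed. That floor is small beside the 310 reads per position of control input, so it cannot show how far the calls depend on counts of 0. RPS27 had 0 reads in both control lanes and 337 and 381 in the METTL3-KD lanes, and RPL32 had 0 against 313 and 338. Both are ribosomal proteins. S100A4, a calcium-binding protein, had 0 against 291 and 270, and MYOF, a membrane repair protein, 1 and 0 against 464 and 442.

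In METTL3-KD input, 11 of the 551 hosts (2.0%, 1.12 to 3.54) were lower, beside 7.2% of all genes. LRRC8A, a subunit of the volume-regulated anion channel, had 234 and 255 control reads and 0 in both METTL3-KD lanes. EML1, a microtubule-binding protein, had 203 and 224 against 0, and MON2 481 and 499 against 0 and 1. SNX8 had 547 and 521 against 8 and 6, and PDAP1 267 and 253 against 4 and 6. These 5 were chosen by their ratio, and the lanes are runs of 1 library. Where each input had at least 10 reads, 8 of 129 hosts (6.20%, 3.18 to 11.8) were lower and 12 (9.30%, 5.40 to 15.6) higher, beside 20.4% and 8.02% of 1871 genes. Scaled to total counts, which moved the median ratio of these 1871 genes by -1.42, 44 hosts (7.99%) were lower beside 12.7% of all genes. With 1 library a condition, no test of these ratios was made.

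Almost no coding peak was found again in METTL3-KD cells. No METTL3-KD peak overlapped 716 of the 718 (99.7%, 99 to 99.9), and this was 99.3% over all control peaks. The share was thus near that of the whole list. The peak in CUBN, the endocytic receptor cubilin, overlapped a METTL3-KD peak by 10 nt and that in TTLL12 by 41 nt, each with a pileup of 1 in both lists. Outside coding sequence 15 of 1581 control peaks overlapped (0.949%, 0.576 to 1.56). A METTL3-KD peak somewhere in an exon was found in 41 host genes (6.22%, 4.62 to 8.33), beside 6.59% of 440 hosts of 3′UTR peaks and 2.54% of all protein-coding genes. Among genes with at least 10 METTL3-KD reads it was 6.39% (4.63 to 8.75) of hosts and 4.92% of all. The METTL3-KD m6A library had 4508 distinct positions against 7920, and the part of this in the low overlap was not tested.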

How the data were processed

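Control and METTL3-KD MIAPaCa-2 RNA was profiled by MeRIP-seq (stranded TruSeq libraries without poly(A) selection, Illumina HiSeq). The authors checked reads with FastQC, removed ribosomal RNA with Bowtie2, aligned to hg19 with HISAT2, counted genes with featureCounts and called peaks with MACS2 2.1.1, lanes pooled, each read extended to 100 nt, with repeated reads at a position dropped. The header gives a q limit of 0.05 and the methods 0.01. The deposited peak lists hold a pileup signal, a fold (ratio over input), and p-value and q-value as −log10. The deposited count table holds raw counts per gene and lane.

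Summits were placed with GENCODE 44 basic transcripts on GRCh37. Where several transcripts had the summit in coding sequence, a single representative was used for lengths and positions. Comparison bases were the coding bases of the same transcripts (each peak weighted equally) or of the representative transcripts of all genes. Shares carry Wilson intervals (95%). Lanes were summed, and log2 ratios were computed with edgeR 4.0.16 in R 4.3.3, with genes of at least 10 reads, a prior count of 2 and a threshold of 2. The code was run on simulated counts with independent reads and no loss of genes in either condition. The real control input differs in both respects, so that run checks the code and not the reliability of the ratios. Other steps used Python 3.11.15, pandas 2.3.3 and pysam 0.24.0. Alternatives, among them DESeq2 1.42.0 size factors, are given in the closing section. The 27 gene lists were set by symbol. Members, lists and tests were chosen with earlier results of these data known.

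Named genes were the 10 peaks of highest pileup, genes with 3 or more coding peaks, peaks overlapping a METTL3-KD peak, up to 4 hosts per gene list by pileup, the 5 peaks in the longest exons, and the 5 hosts with most control reads, with the lowest and with the highest ratio. Sequences were shown for some of the first 3 sets. FN1 was a cell marker of the line. Some genes that this rule names are not reported here.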

Additional observations from a re-analysis of the deposited data

How the results depend on the processing

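Of 253 values under alternative settings, 203 stayed near the reported value. For shares this meant inside the reported Wilson interval, for counts within a fixed fold, and for the median position within the SD over peaks. That SD is of single summits and is wide, so that the median position could hardly move past it. The setting of a q under 0.01 kept all coding peaks, so that its values could hardly move. A fold above 2 and a pileup of at least 2 kept the same peaks, and both settings are counted. The 203 thus include values that were fixed in advance or counted again. Without peaks at fold 2 (equally, with a pileup of at least 2), 387 coding peaks remained, 35.1% of such control peaks, 100% had no METTL3-KD peak, and 243 of 314 host genes (77.4%, beside 79.2% of all genes) were higher. The share in exons of at least 200 nt was 48.1% and of at least 1000 nt 18.0%. Within 100 nt it was 8.91% at the start codon and 7.52% at the stop codon, and within 400 nt 29.5% and 24.5%. DRACH within 25 nt was found in 65.3%, for which no share over coding positions is given. GGAC within 50 nt was found in 42.1%, beside 38.9% at positions of the same transcripts. Without a METTL3-KD peak over at least 50% of the peak were 100%, and without one in exons of the same gene 93.9% (92.9% of 3′UTR peaks). Scaled to total counts 44 hosts were lower (7.99% beside 12.7% of all genes), and at a log2 limit of 1, 36 were (6.53% beside 10.9%). A further pair of settings was chosen after seeing the data. Of peaks wholly inside the exon, 44.1% were in exons of at least 400 nt and 23.7% in the last exon. Without hosts whose only peak had a pileup of 1, 74.7% had 0 control reads. With lanes as replicates and a replicate block, 9 of 551 hosts were lower and 434 higher, the same as without the block. This is no paired design, since a lane number is shared by name. Leaving out 1 control lane gave 9 or 10 lower and 435 or 436 higher of 551 hosts, and 78.0% to 78.1% with 0 control reads. Leaving out 1 METTL3-KD lane left fewer hosts with at least 10 reads. Of these, 11 were lower and 384 of 504 or 393 of 513 higher. Shares of all genes are not given for these lane settings. In the main setting 79.2% of all genes were higher and 7.2% lower. A pileup of at most 5, 7920 distinct positions and 1 library per condition limit every value here.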
